A study of Mus musculus with 53 samples.

Results

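The genes of the solute carrier superfamily, the largest group of membrane transporters, were followed across genotype, treatment and time in bone marrow-derived macrophages. They were chosen by name and level: a gene symbol of Slc followed by a number, and a mean of at least 1 FPKM (fragments scaled to transcript length and to library size) over all 53 samples. Of 369 such loci 196 lay below that mean, and 9 above it were left out by name because they belong to other pathways (Slc7a2, Slc7a11, Slc40a1, Slc11a1, Slc11a2, Slc48a1, Slc2a1, Slc16a1 and Slc16a3). This left 164 genes of the 23847 loci in the tables. All 164 entered the test, which covered the 11146 loci that reached 1 FPKM in any library, and none of the 164 was at 0 in any sample. Their levels were therefore selected on and are given as a description. The rule names no change with IL-4, genotype or time in culture. Its mean does include the WT IL-4 samples, through which Slc7a4, Slc5a3 and Slc29a2 entered. Symbols of 4 members name something other than a carrier (the scaffold Slc9a3r1, Slc7a6os beside Slc7a6, Slc4a1ap, and the pseudogene Slc2a4rg-ps), which leaves 160 carriers.

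Solute carriers move ions, metals, sugars, amino acids, nucleosides, vitamins and organic acids across the plasma membrane and the membranes of lysosomes, Golgi and mitochondria. Most work by exchange or by cotransport with an ion such as sodium or a proton, and they are grouped by family number, for example Slc30 for zinc export from the cytosol and Slc39 for zinc import into it. In macrophages they feed amino acids and sugars into metabolism, empty the lysosome of digested material and set the metal content of the cytosol. IL-4 acts on macrophages through the transcription factor STAT6, and the set of genes it changes is known as alternative activation.

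Bone marrow cells of C57BL/6 wild type (WT) mice and of Stat6-/- mice, a full-body knockout, were differentiated for 6 days in medium conditioned by L929 cells, a source of M-CSF, and the animals were 8 to 12 weeks old. The macrophages then received IL-4 at 20 ng/ml and were collected 1, 3, 6 or 24 h later, each time beside untreated controls, and further controls were collected at 0 h. The 53 libraries of polyadenylated RNA fell into 18 groups, with 4 WT samples per group (3 for 24 h of IL-4, where replicates 2 to 4 were analysed) and 2 Stat6-/- samples per group. WT replicates were individual animals, and the source of the 2 Stat6-/- replicates is not given in the sources used here, so p-values measure the spread between these samples.

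The targeted gene, Stat6, was listed at 58.7 to 90.6 FPKM in the WT libraries and at 14.3 to 24.0 in the Stat6-/- libraries, with no overlap. The macrophage marker genes Csf1r (610 to 1081 FPKM) and Cd68 (780 to 1678) were high in every library, and the summed level of 4 T cell markers was 0.738 to 15.5 and that of 4 B cell markers 1.23 to 13.9, nearly all from Cd4 and Cd79b. Granulocyte markers summed to 202 to 990 FPKM, mostly from S100a8 and S100a9, and Mki67 and Top2a, genes of dividing cells, to 8.48 to 70.5. These sums moved with some groups. In WT at 24 h they were lower with IL-4 than in controls, without overlap, for macrophage (2604 to 2626 against 3274 to 3773), granulocyte (202 to 295 against 415 to 566), dividing-cell (8.48 to 15.3 against 17.8 to 37.6), T cell (0.738 to 1.37 against 8.03 to 15.5) and B cell markers (1.23 to 1.52 against 2.59 to 5.41). At 0 h the Stat6-/- controls had more granulocyte (701 to 796 against 387 to 505) and less dividing-cell marker RNA (11.6 to 20.9 against 31.1 to 55.1) than WT controls. The part of these shifts in the 24 h and genotype results was not tested. In such bulk samples fewer cells of a type and less RNA per cell cannot be told apart. Between 10017 and 10380 loci reached 1 FPKM per library, and the relative depth of the libraries, recovered from loci below 1 FPKM, ranged from 0.709 to 1.57 of the median library. The absolute depth is unknown. Both Stat6-/- replicates stood apart from each other: 458 tested loci, 6 members among them (Slc22a4, Slc7a8, Slc39a4, Slc15a2, Slc28a2 and Slc13a3), differed at least 2-fold between replicates 1 and 2 on average over the 9 groups, against 19 to 43 loci and 0 to 1 members between any pair of WT replicates. For results that rest on the Stat6-/- samples, some effect sizes are therefore given with and without each of them. Leaving out a replicate leaves 1 sample per Stat6-/- group. The spread then comes from WT alone, so no p-value is given for such a result.

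The solute carrier genes covered a wide range of levels. The mean over all samples was at least 100 FPKM for 7 members, at least 10 for 94 and below 5 for 40, with a median of 11.04, against 9.93 for the tested loci. The highest was Slc25a3, the mitochondrial phosphate carrier, with a mean of 213.4 FPKM and single samples from 189.1 to 261.2. It was followed by the taurine transporter Slc6a6 (mean 197.6, range 128.2 to 253.8) and the ADP/ATP carrier Slc25a5 (161.2, 121.5 to 244.6). Next came Slc37a2, a sugar-phosphate exchanger of the endoplasmic reticulum (155.1, 89.4 to 344.3), Slc15a3, a proton-coupled histidine and peptide transporter of the lysosome (111.9, 59.8 to 206.8), and Slc25a4, another ADP/ATP carrier (104.3, 64.7 to 133.7). The ranges of neighbours in this order overlapped. At the edge of the choice, Slc5a3 (1.03), Slc7a4 (1.20) and Slc5a6 (1.25) lay just inside, and Slc36a2 (0.970), Slc12a2 (0.968) and Slc9a5 (0.955) just outside. Slc7a4, Slc5a3 and Slc29a2 had means below 1 FPKM outside the WT IL-4 samples, so they entered through the samples in which they were high, and their increase is a description rather than support for a change of the list. Of the loci under the limit 15 were tested, and 4 of these were called with IL-4 in WT (Slc14a1, Slc18a1, Slc36a2 and Slc9a3r2). Of all tested loci 12.8% were called at some time. Together the 164 genes held between 0.763% and 0.954% of all FPKM in a library.

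The number of solute carrier genes called with IL-4 in WT macrophages rose from 3 at 1 h to 22 at 24 h. A gene is called here when limma's adjusted p was under 0.05 and the change at least 2-fold on the log2(FPKM + 1) scale, which understates changes of low genes, and it passed the test when the adjusted p alone was under 0.05. After 1 h, 3 members were called higher (1.09% of all tested loci were) and none was called lower (0.395%); 13 members passed the test upwards (7.93%, against 5.67% of all loci) and 14 downwards (8.54%, against 3.72%), and by limma 43 of the 164 had an unadjusted p under 0.05 in either direction (26.2%, against 19.8%). After 3 h, 8 were called higher (2.61% of all loci) and 3 lower (1.27%). After 6 h the counts were 11 higher (3.18%) and 6 lower (2.36%), and after 24 h 10 higher (3.91%) and 12 lower (4.58%). As shares of the 164 members these were 1.83%, 4.88%, 6.71% and 6.10% higher and 0%, 1.83%, 3.66% and 7.32% lower. The median change over the members was -0.07, -0.02, -0.01 and -0.05 at the 4 times, against -0.02, 0.01, -0.00 and -0.07 over all tested loci.

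In all, 37 members were called at some time (22.6%, against 12.8% of all tested loci), 20 higher (12.2%, against 6.58%) and 17 lower (10.4%, against 6.33%), and 127 were not. The tested loci include those with a mean under 1 FPKM, which the members do not. Among the 20 called higher are Slc5a3 and Slc29a2, which entered through the WT IL-4 samples, so these shares are not free of the choice. At the time of its largest change every IL-4 sample of each of the 37 lay beyond every control sample. The call itself selects for such a separation, and its share over all tested loci was not counted. Of the 37, 26 were called at a single time, 7 at 2 times, 3 at 3 times and 1, Slc30a4, at all 4. The 3 h and 6 h lists shared 7 genes (63.6% of the former and 41.2% of the latter), where over all tested loci 78.8% and 55.3% were shared. The 3 h and 24 h lists shared 3 (27.3% and 13.6%, against 35.6% and 16.3%). No member was called higher at one time and lower at another, as were 0.135% of all tested loci. The largest change of a called member fell at 1 h for 1 gene, at 3 h for 7, at 6 h for 11 and at 24 h for 18.

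**Figure D1:**
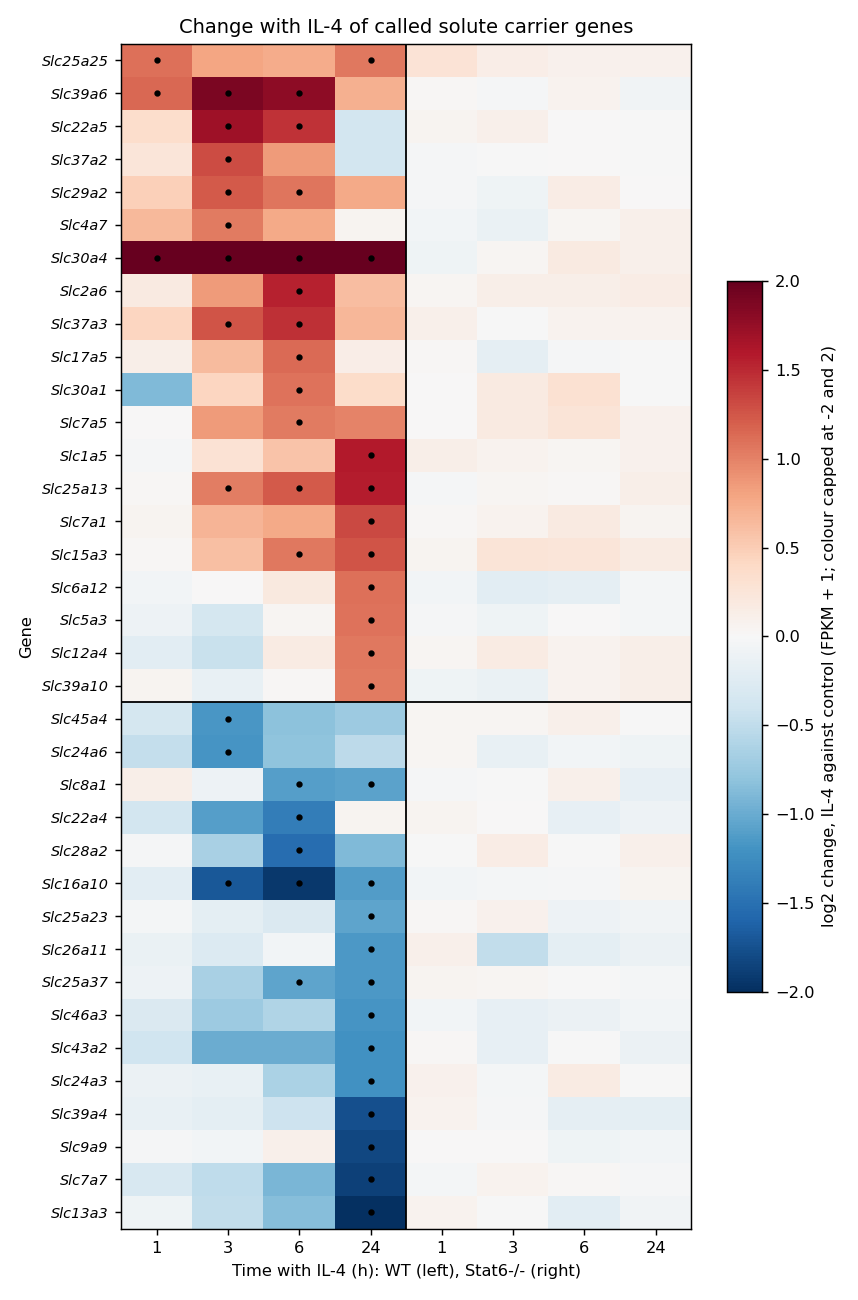
Log2 change with IL-4 against the time-matched control (colour, on the log2(FPKM + 1) scale) for called genes in rows and the 4 times in columns, WT on the left and Stat6-/- on the right; dots mark called values. Rows are sorted by direction and then by the time of the largest called change, so the order sets the drift of colour from early times to 24 h. The Stat6-/- columns stay near 0, with no value above 0.49 in size.

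The zinc carriers held the strongest response. Slc30a4 encodes ZnT4, which moves zinc from the cytosol into vesicles, and its 250 bases upstream of the transcription start are shown because no other member changed as much (RefSeq, GRCm38.p6, minus strand, chr2:122702664-122702913, overlapping an exon of 4930417H01Rik). Slc28a2, a concentrative nucleoside transporter called lower at 6 h, follows because it was the only called member with both motifs searched (plus strand, chr2:122426185-122426434), and capitals mark the matches.
Slc30a4: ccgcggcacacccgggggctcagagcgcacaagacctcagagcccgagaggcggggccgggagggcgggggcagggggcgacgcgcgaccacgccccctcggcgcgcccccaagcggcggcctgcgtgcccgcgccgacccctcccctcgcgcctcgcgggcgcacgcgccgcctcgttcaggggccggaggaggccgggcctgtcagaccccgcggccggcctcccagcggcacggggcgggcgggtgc
Slc28a2: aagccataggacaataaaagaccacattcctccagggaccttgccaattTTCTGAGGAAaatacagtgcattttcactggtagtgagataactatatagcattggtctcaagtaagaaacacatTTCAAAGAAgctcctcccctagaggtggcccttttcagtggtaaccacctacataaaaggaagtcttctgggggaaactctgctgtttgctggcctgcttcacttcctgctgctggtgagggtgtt

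The motifs were TTC and GAA separated by 4 bases, the spacing STAT6 is known to prefer, and the same separated by 3 bases, the spacing of other STAT proteins. Each reads the same on both strands in its fixed bases, and the search covered 250 bases before to 50 after the start in 43 windows of the 27 called members that the promoter table held. The spacing of 4 was present in 3 of these 27 genes (11.1%: Slc25a25, Slc28a2 and Slc43a2), against 8.01% of all 27025 genes. Per window the shares were 6.98% and 6.95%. That of 3 was present in 4 (14.8%: Slc39a10, Slc28a2, Slc46a3 and Slc7a1), against 9.55%, and in 9.3% of their windows against 8.3%. The called genes had more windows per gene, 43 for 27 genes against 32851 for 27025, which raises their share per gene. The Slc30a4 window held neither.

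Slc30a4 (chr2:122681239-122702663, mm10, a protein-coding gene as are all 37) stood at 3.67, 3.76, 3.60 and 3.52 FPKM in the WT controls at 6 h and at 81.3, 79.7, 76.3 and 71.9 with IL-4. The groups were far apart, by 21.3-fold in the means, and the log2 change was 4.08 (SE 0.15, adjusted p 1.3e-23). It was already at 24.5 FPKM on average after 1 h and at 73.3 after 3 h, and it was down to 21.8 after 24 h while the controls stayed between 3.31 and 3.64. In the Stat6-/- samples at 6 h it was at 3.42 and 2.73 FPKM without IL-4 and at 3.94 and 3.29 with it. The change there was 0.18 (SE 0.21), and the difference between the genotypes' responses was 3.89 (SE 0.26, adjusted p 7.9e-15).

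Slc39a6, the plasma membrane zinc importer ZIP6, was at 15.5, 17.2, 17.2 and 14.9 FPKM in the 3 h controls and at 64.3, 69.1, 63.5 and 53.6 with IL-4. All IL-4 samples lay well above the controls, and the log2 change was 1.88 (SE 0.08, adjusted p 8.9e-21). In Stat6-/- the change was -0.02 (SE 0.12), with 14.5 and 13.6 FPKM in controls and 14.8 and 12.9 with IL-4. Its WT mean fell from 62.6 FPKM at 3 h to 25.7 at 24 h of IL-4, still above a control mean of 15.3.

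Another 3 zinc carriers were called, each at a single time, where 12.8% of all tested loci were called at some time. Slc30a1, the zinc exporter ZnT1 of the plasma membrane, went from 9.32 ± 1.85 to 4.55 ± 0.407 FPKM (SD, n = 4) at 1 h, a decrease that passed the test without reaching 2-fold (log2 change -0.88, adjusted p 0.019). At 6 h it was called higher, at 18.1 ± 1.70 against 8.10 ± 1.41 (log2 change 1.08, adjusted p 0.00068). Slc39a10, the importer ZIP10, was called higher at 24 h, with 17.2 ± 0.631 FPKM (n = 3) against 7.92 ± 0.847 (n = 4), and the call was lost without WT replicate 1 (0.98). Slc39a4, the importer ZIP4 known from intestinal zinc uptake, was at 10.2, 5.87, 10.1 and 13.2 FPKM in the 24 h controls and at 1.20, 2.25 and 3.11 with IL-4. It fell by 1.76 on the log2 scale (SE 0.44, adjusted p 0.00097), and the groups did not overlap. Its Stat6-/- replicates differed widely, with 12.4 and 5.41 FPKM in controls and 13.9 and 3.42 with IL-4, and the difference between genotypes did not pass in the fit without the replicate number (-1.57, SE 0.73, adjusted p 0.10). With the number as a block it did (-1.56, adjusted p 5.2e-09), and without Stat6-/- replicate 1 or 2 it was -1.23 or -1.92.

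Over the 17 zinc carriers, 2 passed the test upwards and 2 downwards after 1 h (5.67% and 3.72% of all tested loci), 3 and 1 after 3 h (16.4% and 12.5%), 6 and 0 after 6 h (22% and 19.2%), and 5 and 4 after 24 h (23.4% and 31.6%). The median change of the group was -0.09, 0.01, 0.01 and 0.02. Slc39a1, the most abundant of them at 68.4 FPKM, passed the test at 1 h and 3 h with a change of -0.13 at both. Slc39a7, which releases zinc from the endoplasmic reticulum, rose by 0.65 at 6 h, and Slc39a11 rose by 0.84 at 24 h. The zinc-binding metallothioneins Mt1 and Mt2 and their activator Mtf1 did not pass the test at any time, with changes between -0.33 and 0.32.

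**Figure D2:**
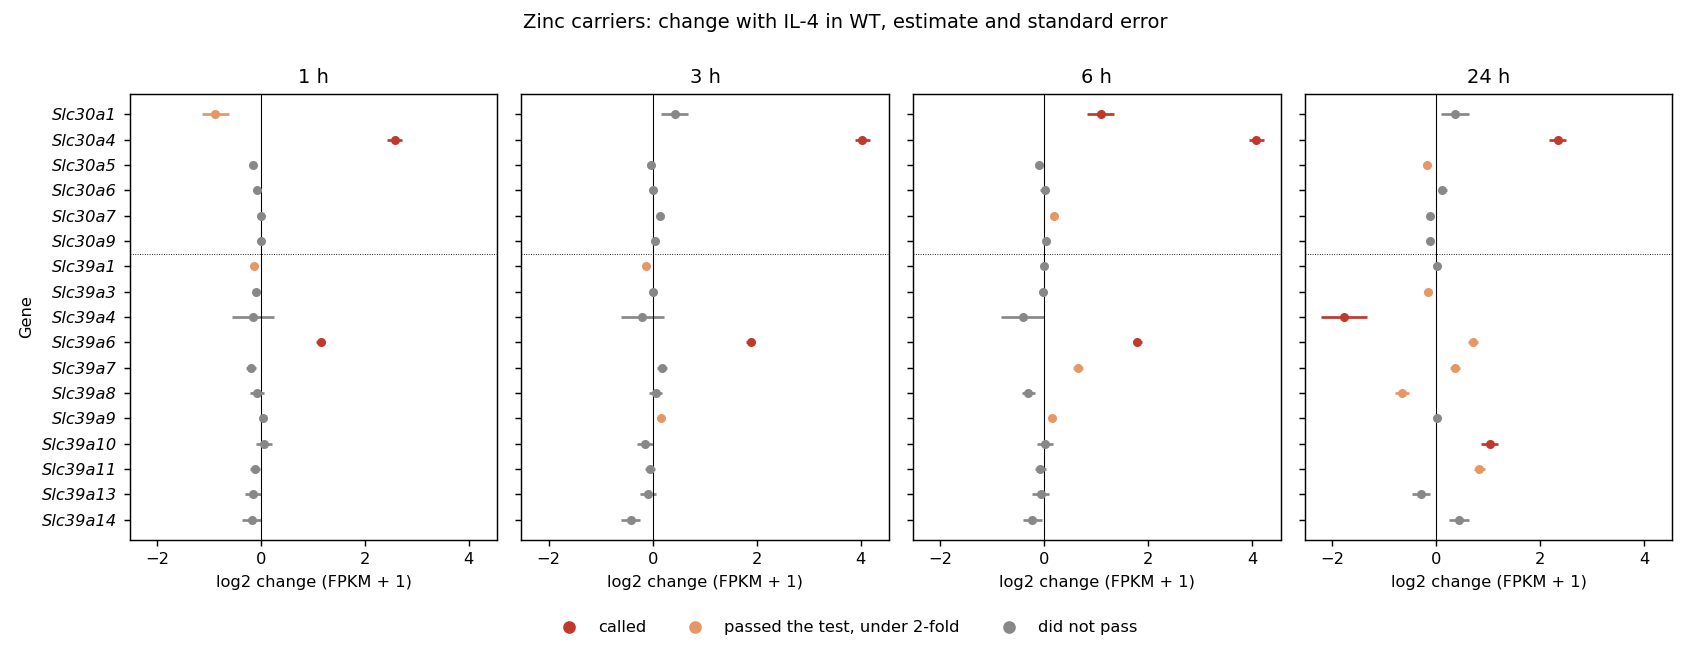
Log2 change with IL-4 in WT (horizontal axis, log2(FPKM + 1), point and standard error) for the 17 zinc carriers at 1, 3, 6 and 24 h, with the Slc30 family above the dotted line and Slc39 below. Slc30a4 lies between 2.34 and 4.08 at every time, Slc39a6 is called at 1, 3 and 6 h, and Slc39a4 is the only gene called lower.

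**Figure D3:**
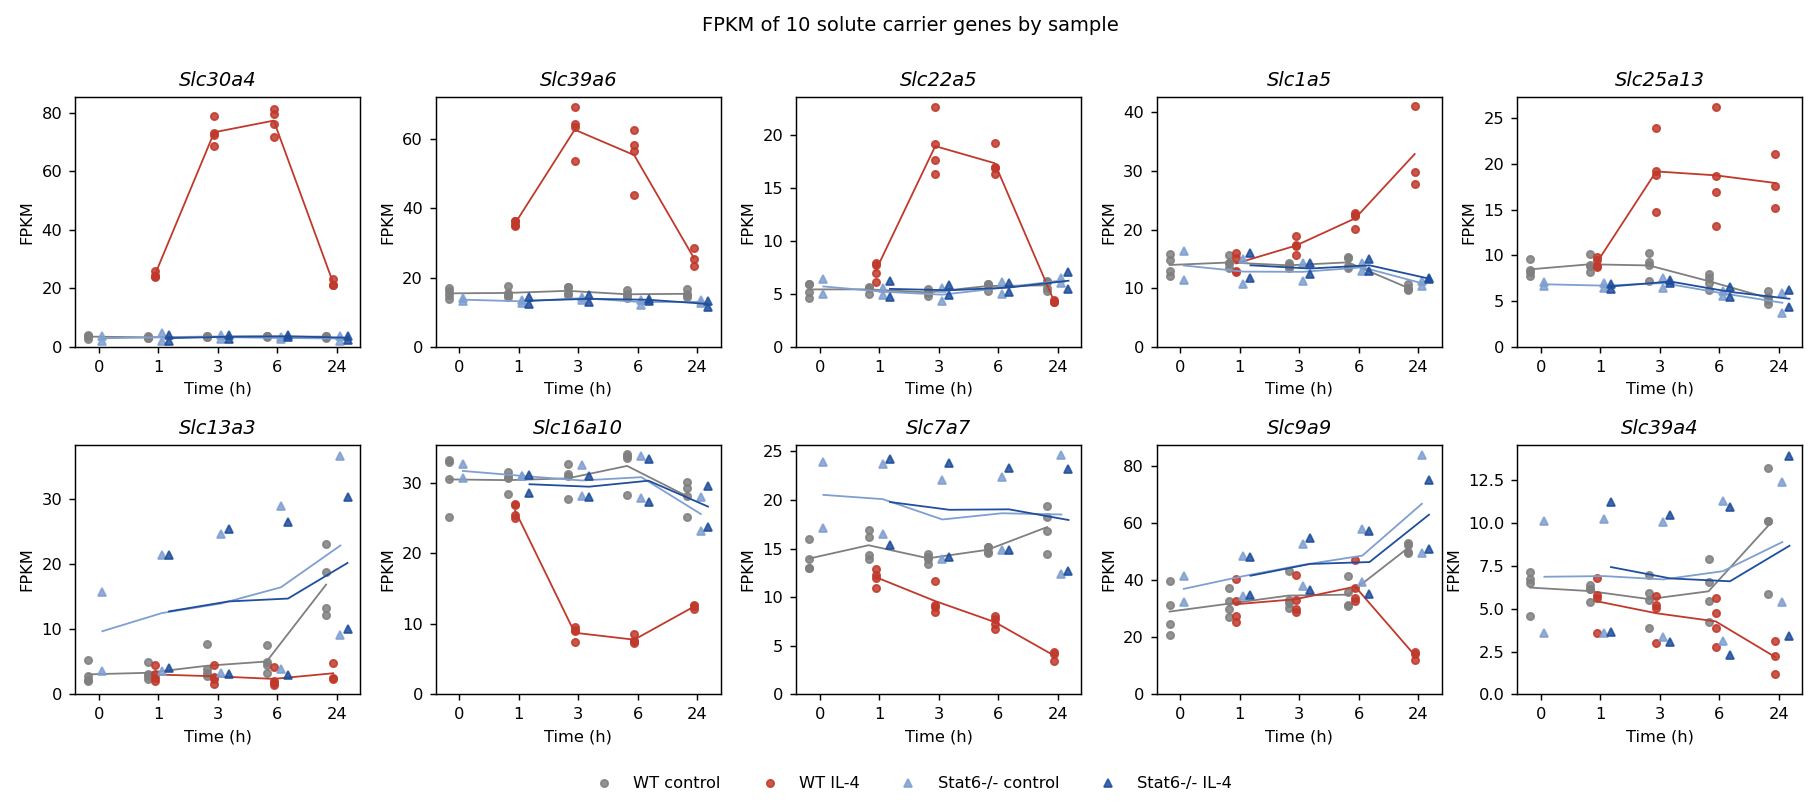
FPKM (vertical axis, from 0) in every sample against time (categorical axis, h) for the 5 called genes that rose most and the 5 that fell most; points are samples and lines join group means. The upper row separates from its controls at 1 to 3 h for Slc30a4, Slc39a6 and Slc22a5 and later for Slc1a5, and the Stat6-/- means with and without IL-4 lie close together in all 10 panels.

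Of 22 amino acid carriers, 4 were called higher and 2 lower at some time, where 6.58% and 6.33% of all tested loci were. Slc1a5, the sodium-dependent glutamine transporter ASCT2 (chr7:16781346-16798274), was at 10.7, 9.77, 10.02 and 9.93 FPKM in the 24 h controls and at 41.02, 27.7 and 29.9 with IL-4. The lowest IL-4 sample lay far above the highest control, and the log2 change was 1.59 (SE 0.12, adjusted p 3.9e-14). In Stat6-/- it was at 11.3 and 10.4 without and at 11.8 and 11.5 with IL-4, and the difference between genotypes was 1.497 (SE 0.19, adjusted p 1.8e-07). Its WT mean with IL-4 was 14.2, 17.3, 21.9 and 32.9 FPKM at the 4 times.

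Slc7a7, the light chain y+LAT1 that exports cationic amino acids such as arginine in exchange for neutral ones (chr14:54369442-54417702), moved the other way. The 24 h controls were at 19.4, 14.4, 18.2 and 16.8 FPKM and the IL-4 samples at 3.44, 4.15 and 4.39, a 4.31-fold difference of means with no overlap. It fell by 1.86 on the log2 scale (SE 0.19, adjusted p 3.1e-10). The Stat6-/- replicates were at 12.4 and 24.6 in controls and at 12.6 and 23.2 with IL-4, and the interaction was -1.84 (SE 0.32, adjusted p 3.5e-05). Slc7a1, the cationic amino acid importer CAT1, was higher at 24 h, at 7.54, 4.26 and 3.37 FPKM against 0.998, 1.46, 1.42 and 1.505 in controls (log2 change 1.31, adjusted p 2.7e-09).

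The remaining called amino acid carriers were Slc7a5, Slc6a12 and Slc43a2. Slc7a5, the large neutral amino acid transporter LAT1, reached 3.27 ± 0.384 FPKM at 6 h against 1.09 ± 0.269 (n = 4), and its partner Slc3a2, the heavy chain shared by several Slc7 transporters, rose by 0.38 at 6 h (122.7 ± 5.67 against 94.2 ± 4.24). Slc43a2, the neutral amino acid transporter LAT4, was at 48.8 ± 8.63 FPKM at 24 h of IL-4 against 114.4 ± 17.6, and the changes at 3 h (-0.99) and 6 h (-0.995) passed the test as well. Slc6a6, the taurine transporter, fell by 0.60 at 3 h and by 0.73 at 6 h and was at 185.6 ± 9.21 against 191.1 ± 12.2 at 24 h, where the change did not pass. In the group 6 passed upwards and 6 downwards at 3 h (16.4% and 12.5% of all tested loci). At 24 h 6 and 3 did (23.4% and 31.6%), with a median change of 0.10.

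Slc5a3 and Slc6a12 were called higher at 24 h at low levels. Slc5a3, the sodium/myo-inositol cotransporter and among the genes that entered through the WT IL-4 samples, was at 3.04, 3.78 and 4.92 FPKM with IL-4 and at 1.07, 1.14, 1.33 and 1.67 without. Slc6a12, the betaine and GABA transporter, was at 2.77, 3.58 and 6.74 against 1.75, 0.739, 1.33 and 1.91, and its control mean had been 3.35 at 0 h. The changes were 1.08 (adjusted p 2.8e-06) and 1.10 (adjusted p 1.9e-05), and both were close to 0 in Stat6-/- (-0.04 each), and the Slc6a12 call was lost without WT replicate 4 (0.90).

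Of 13 sugar carriers, 4 were called higher and 1 lower at some time, where 6.58% and 6.33% of all tested loci were. Among the 4 is Slc5a3, which entered through the WT IL-4 samples. Slc37a2 was at 133, 139.6, 129 and 125 FPKM in the 3 h controls and at 307, 318, 344 and 334 with IL-4, which made it the most abundant called gene (log2 change 1.30, SE 0.08, adjusted p 3.2e-17). At 24 h it was below its controls, at 90.6 ± 1.01 against 117.5 ± 7.08 FPKM (log2 change -0.37, adjusted p 0.00024). Its relative Slc37a3 reached 25.5 ± 0.860 FPKM at 6 h against 8.59 ± 0.187, and Slc37a4, the glucose-6-phosphate transporter, rose by 0.99 at 3 h and 0.98 at 6 h, just under 2-fold. Slc2a6, the hexose transporter GLUT6 found on lysosomes, went from 22.8 ± 1.62 to 67.9 ± 5.90 FPKM at 6 h. Slc45a4 was the only sugar-family member called lower, with 5.82 ± 0.706 FPKM at 3 h against 14.2 ± 0.792. In the group 5 passed upwards and 1 downwards at 3 h (16.4% and 12.5% of all tested loci), and 2 upwards and 7 downwards at 24 h (23.4% and 31.6%), with a median change of -0.24 at 24 h.

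In the organic ion, peptide and vesicular carriers, members of the same family parted. Slc22a5, the carnitine transporter OCTN2 (chr11:53864542-53891703), was at 4.78, 5.20, 5.15 and 5.48 FPKM in the 3 h controls and at 17.7, 16.3, 19.2 and 22.7 with IL-4. The log2 change was 1.69 (SE 0.09, adjusted p 5.5e-18), and at 24 h the gene had fallen below its controls, at 4.31 ± 0.106 against 5.82 ± 0.480 FPKM (log2 change -0.36, adjusted p 0.0027). The Stat6-/- samples at 3 h were at 5.55 and 4.34 in controls and at 5.82 and 4.90 with IL-4. Slc22a4, the ergothioneine transporter OCTN1 on the same chromosome, was lower at 6 h, with 1.21, 1.02, 1.24 and 2.03 FPKM against 4.08, 3.78, 5.97 and 7.28 (log2 change -1.38, SE 0.51, adjusted p 0.029). That call was lost without any single WT replicate (log2 change -1.44 to -1.30), and its Stat6-/- replicates were at 10.1 and 1.63 FPKM in 6 h controls. The interaction was -1.22 (adjusted p 0.43), which passed with the replicate number as a block (adjusted p 3.7e-06). Without Stat6-/- replicate 1 or 2 the interaction was -1.23 or -1.20. Slc22a21 lay 3099 bases from Slc22a4 and did not pass the test before 24 h. Slc22a5 shares 26.3% of its 50-base transcript stretches with other genes, mostly Slc22a21, so how the counting divided reads between them is uncertain.

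Slc15a3 and Slc17a5, carriers of the lysosome, were called higher. Slc15a3 was at 206, 207 and 201 FPKM with 24 h of IL-4 and at 97.9, 70.8, 86.8 and 86.3 without (log2 change 1.26, SE 0.31, adjusted p 0.00093), though 28.1% of its exonic bases lie opposite exons of Tmem132a and the kit is not stated to keep strand. Slc17a5, the sialic acid exporter sialin, reached 43.3 ± 3.11 FPKM at 6 h against 19.2 ± 1.54. Slc15a4, the relative of Slc15a3 in endolysosomes, decreased at each time, by 0.45 at 1 h and by 0.97 at 24 h, where it was at 23.3 ± 2.12 against 46.6 ± 2.48 FPKM. Of 14 members, 6 passed upwards and 4 downwards at 6 h (22% and 19.2% of all tested loci).

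Mitochondrial carriers, the largest group with 34 members, had 2 members called higher and 2 lower, where 6.58% and 6.33% of all tested loci were. Slc25a13, the aspartate/glutamate carrier citrin of the malate-aspartate shuttle (chr6:6041218-6217173), was at 4.71, 6.08, 5.17 and 5.45 FPKM in the 24 h controls and at 21.1, 17.5 and 15.1 with IL-4. The log2 change was 1.57 (SE 0.15, adjusted p 3.3e-11), after 1.02 at 3 h and 1.23 at 6 h. The Stat6-/- samples stayed at 5.92 and 3.73 without and 6.18 and 4.35 with IL-4, and the interaction was 1.45 (SE 0.25, adjusted p 2.2e-05). Its paralogue Slc25a12, another aspartate/glutamate carrier, rose by 0.38 at 3 h and by 0.44 at 6 h.

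Slc25a25, an ATP-Mg/phosphate carrier, was the only member called at 1 h apart from the zinc carriers, at 16.7 ± 1.07 FPKM against 7.27 ± 0.622, and it was called again at 24 h (log2 change 1.05). Its relative Slc25a23 was called lower at 24 h, with 1.05 ± 0.0400 FPKM against 3.30 ± 0.490. Slc25a37, the mitochondrial iron importer mitoferrin-1, fell by 1.06 at 6 h and by 1.14 at 24 h, to 8.82 ± 0.159 FPKM (n = 3) against 20.7 ± 0.693 (n = 4). Mitoferrin-2, Slc25a28, decreased by 0.96 at 6 h. Among the abundant members, the ADP/ATP carrier Slc25a5 rose by 0.92 at 24 h (237.3 ± 7.35 against 124.9 ± 2.88 FPKM) and Slc25a4 did not pass the test at any time, with changes from -0.16 to 0.13. At 24 h 9 of the 34 passed upwards and 10 downwards (23.4% and 31.6% of all tested loci), and 15 did not pass.

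Of 26 ion exchangers and cotransporters, 7 were called lower and 2 higher at some time, where 6.33% and 6.58% of all tested loci were. Slc13a3, the sodium-dependent dicarboxylate transporter NaDC3 that takes up succinate and related acids (chr2:165405295-165473197), was at 23.2, 12.3, 18.8 and 13.3 FPKM in the 24 h WT controls and at 4.87, 2.57 and 2.35 with IL-4. The groups did not overlap, and the gene fell by 2.07 on the log2 scale (SE 0.67, adjusted p 0.0086); the call was lost without WT replicate 3 (-1.90) or 4 (-2.02). Its WT control mean was 3.09 FPKM at 0 h, and the mean with IL-4 at 24 h was 3.26. The Stat6-/- replicates were at 9.15 and 36.6 FPKM in 24 h controls and at 10.02 and 30.4 with IL-4, and the interaction did not pass (-2.002, SE 1.10, adjusted p 0.18; with the replicate number as a block adjusted p 0.056). Without Stat6-/- replicate 1 or 2 the interaction was -1.81 or -2.19.

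Slc9a9, the endosomal sodium/proton exchanger NHE9 (chr9:94669892-95230452), was at 52.2, 49.7, 53.1 and 49.4 FPKM in the 24 h WT controls and at 12.03, 14.1 and 15.02 with IL-4, and it fell by 1.83 (SE 0.21, adjusted p 2.8e-09) after changes of -0.02, -0.05 and 0.10 at the earlier times. The Stat6-/- replicates stayed at 49.6 and 83.7 in controls and at 50.9 and 74.8 with IL-4 (interaction -1.76, SE 0.35, adjusted p 0.00017). Of the calcium exchangers, Slc8a1 was called lower at 6 h (-1.10) and 24 h (-1.07), Slc24a3 at 24 h (-1.22) and Slc24a6, which acts in mitochondria, at 3 h (-1.18, to 18.3 ± 1.48 from 42.8 ± 1.94 FPKM).

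The potassium/chloride cotransporter Slc12a4 was called higher at 24 h (1.05, at 33.2 ± 4.43 against 15.5 ± 0.802 FPKM), a call lost without WT replicate 2 (0.91). The sulfate carrier Slc26a11 was called lower at 24 h (-1.14). The bicarbonate cotransporter Slc4a7 was called higher at 3 h, at 16.1 ± 1.30 FPKM against 7.32 ± 1.07, a call lost without WT replicate 2 (0.98). At 24 h 4 of the 26 passed upwards and 10 downwards (23.4% and 31.6% of all tested loci), with a median change of -0.10; their most abundant gene, the scaffold Slc9a3r1 (48.9 FPKM), fell by 0.23 at 6 h.

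Slc16a10, a transporter of aromatic amino acids placed by sequence in the monocarboxylate family (chr10:40033535-40142254), fell furthest of the 164 genes at 3 h and 6 h. At 6 h the WT controls were at 34.1, 33.8, 33.5 and 28.3 FPKM and the IL-4 samples at 7.62, 8.58, 7.55 and 7.34. The log2 change was -1.93 (SE 0.09, adjusted p 6e-21), a 4.17-fold difference of means, and it was called at 3 h (-1.70) and 24 h (-1.11) as well. In Stat6-/- it was at 27.9 and 33.8 without and at 27.3 and 33.4 with IL-4, and the interaction was -1.90 (SE 0.15, adjusted p 8e-13). The other 3 members of that family did not reach 2-fold, though Slc16a7 and Slc16a6 each fell at 24 h (-0.76 and -0.75).

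Among 10 nucleoside and vitamin carriers, Slc29a2, the equilibrative nucleoside transporter ENT2, was called higher at 3 h (3.64 ± 0.353 against 0.989 ± 0.112 FPKM) and 6 h. It entered through the WT IL-4 samples, so this increase is a description. Slc28a2, whose upstream sequence held both motifs, was at 4.40, 4.94, 3.76 and 3.01 FPKM at 6 h of IL-4 against 16.6, 18.4, 11.5 and 8.71, and its call (-1.52, SE 0.50, adjusted p 0.014) was lost without any single WT replicate (-1.60 to -1.46). It shares 35.4% of its 50-base stretches with other genes, mostly Gm14085, and the Stat6-/- replicates were at 6.33 and 29.3 FPKM in 6 h controls. Its interaction of -1.51 did not pass (adjusted p 0.28), but did with the replicate number as a block (adjusted p 5.8e-12) and without either Stat6-/- replicate (adjusted p 0.035 in both). Slc46a3, a lysosomal carrier and the most abundant of the group (36.99 FPKM), was called lower at 24 h, at 25.2 ± 5.31 against 57.6 ± 6.40. This call was lost in 1 of the 12 alternatives.

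None of the 20 members of the Slc35 family, grouped here by family number as nucleotide-sugar carriers, was called. Of all tested loci 12.8% were called at some time. Slc35b1, a carrier of the endoplasmic reticulum, came closest, with a rise of 0.98 at 24 h (64.2 ± 6.87 against 32.2 ± 5.17 FPKM), and 5 of the 20 passed upwards and 7 downwards at that time (23.4% and 31.6% of all tested loci). The most abundant, Slc35f6 (43.5 FPKM), decreased by 0.35 at 1 h and rose by 0.57 at 24 h. Both fatty acid carriers decreased at 3 h and 6 h, Slc27a1 by 0.58 and 0.70. The copper carriers moved apart, Slc31a2 with an increase of 0.80, 0.86 and 0.82 at 1, 3 and 6 h and a decrease of 0.47 at 24 h, and the importer Slc31a1 with decreases of 0.44, 0.61 and 0.50 at 3, 6 and 24 h.

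**Figure D4:**
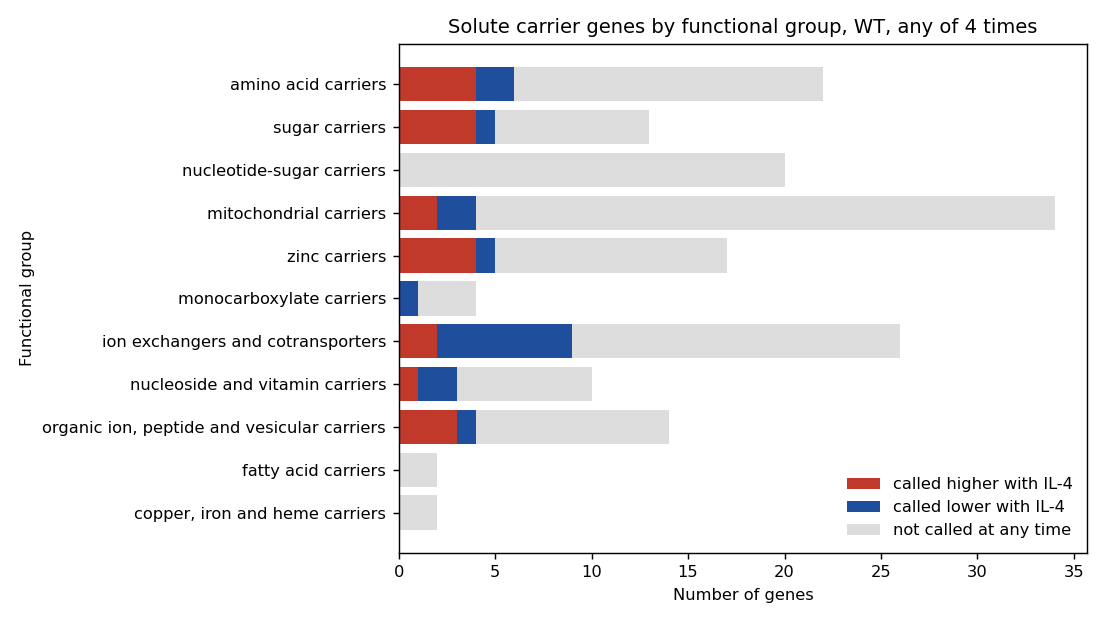
Number of genes (horizontal axis) in 11 functional groups set by family number, divided into those called higher with IL-4 in WT at any of the 4 times, those called lower and those not called. Ion exchangers and cotransporters hold 7 of the 17 decreases, and no nucleotide-sugar, fatty acid or copper carrier is called. Of all tested loci 6.58% were called higher and 6.33% lower at some time.

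Of the 164 members 14 (8.54%) passed the test upwards at one time and downwards at another, as did 5.55% of all tested loci. Slc22a5, Slc37a2 and Slc31a2, given above, as well as Slc2a9 and Slc25a35, rose early and were lower at 24 h. Slc2a9, the urate transporter, went from an increase of 0.46 at 6 h to a decrease of 0.95 at 24 h (3.62 ± 0.215 against 7.96 ± 0.744 FPKM). Another 9 decreased first: Slc12a4, Slc23a2, Slc25a44, Slc29a3, Slc30a1, Slc35e4, Slc35f6, Slc4a2 and Slc6a8. The creatine transporter Slc6a8 went from -0.68 at 3 h to 0.74 at 24 h, and the lysosomal nucleoside transporter Slc29a3 from -0.65 to 0.56. These 4 contrasts have separate controls, and the difference between times was not tested.

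In Stat6-/- macrophages no member was called at any time. Of all tested loci 0% were called after 1 h, 0% after 3 h, 0% after 6 h and 0% after 24 h. By limma, 0, 0, 1 and 0 of the 164 had an unadjusted p under 0.05 at the 4 times. As shares these were 0%, 0%, 0.61% and 0%, against 0.46%, 1.18%, 0.79% and 0.33% of all tested loci. This fit has no replicate block, so the gap between the Stat6-/- replicates counts as spread. Every alternative setting run in Stat6-/- with both replicates kept gave 0 calls, and Tukey's test was run in WT alone. The changes of all members lay between -0.49 and 0.40. The median standard error in Stat6-/- was 0.14, against 0.10 in WT at 1 to 6 h.

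The difference between the genotypes' responses was called for 2 members after 1 h (1.25% of all tested loci were), 10 after 3 h (3.48%), 11 after 6 h (4.41%) and 11 after 24 h (6.85%). Slc29a2 at 3 h and Slc5a3 at 24 h are among these and entered through the WT IL-4 samples, so these counts are not free of the choice. Of the 37 genes called in WT, 22 had a called difference at the time of their largest change, and 29 had one when the replicate number was blocked. Among all members called in WT at a given time, 2 of 3 at 1 h, 10 of 11 at 3 h, 10 of 17 at 6 h and 11 of 22 at 24 h had one. The large WT change that picked these genes is also part of the difference. The matching share over all loci called in WT was not counted. The Stat6-/- change of the 37 genes at their largest WT change was at most 0.30 in size, with a median size of 0.09. Without Stat6-/- replicate 1 or 2 it was at most 0.54 or 0.46. The sign of the WT change was shared by 28 of the 37, and its share over all tested loci was not counted. Leaving out a Stat6-/- replicate leaves 1 sample in each Stat6-/- group, so counts of called differences are not given for it.

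**Figure D5:**
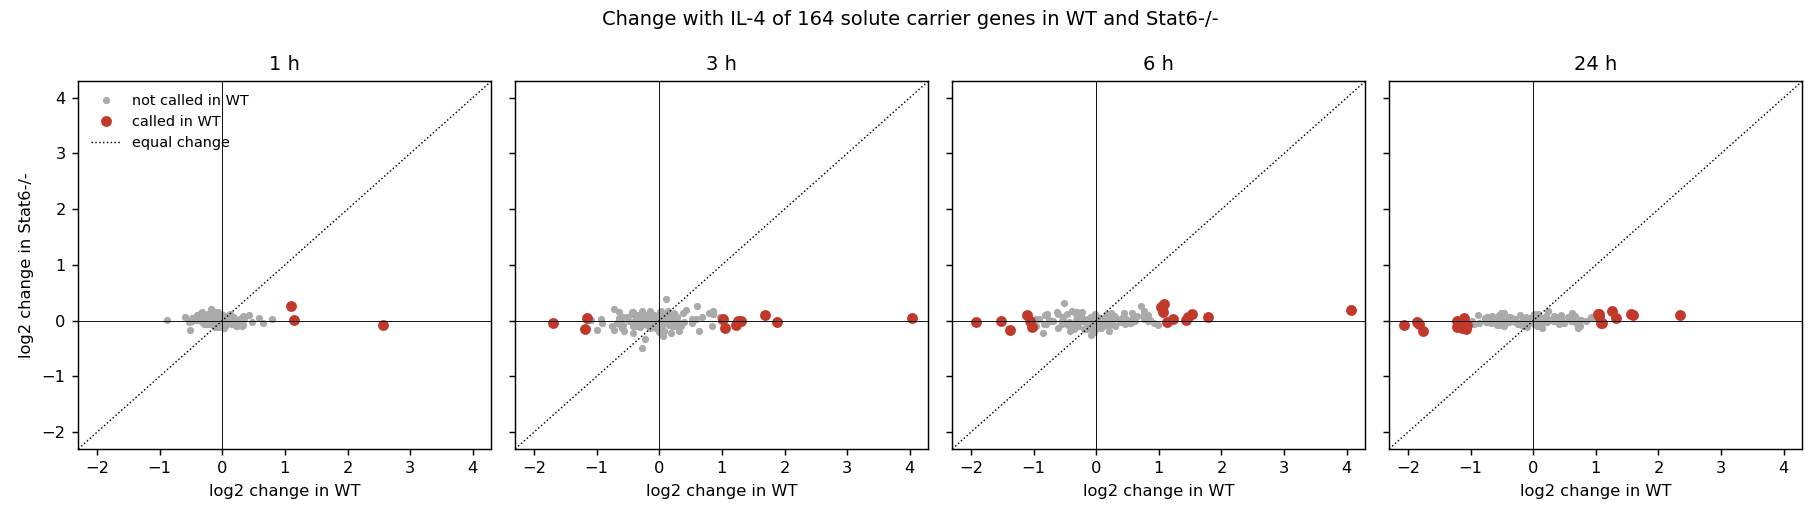
Log2 change with IL-4 in Stat6-/- (vertical axis) against WT (horizontal axis), both on the log2(FPKM + 1) scale, for the 164 genes at 1, 3, 6 and 24 h; red marks genes called in WT and the dotted line equal change. The points spread along the horizontal axis from -2.07 to 4.08 and stay within -0.49 and 0.40 on the vertical axis.

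Time in culture without IL-4 was compared between the 24 h and 0 h controls. In WT 36 members passed the test (22%, against 17.2% of all tested loci), 11 upwards and 25 downwards, and 1 of them, Slc13a3, was called, as against 1.13% of all loci. Slc13a3 went from 3.09 ± 1.46 to 16.9 ± 5.10 FPKM (n = 4; log2 change 2.14, SE 0.62, adjusted p 0.014), and its call was lost without WT replicate 1 (1.90), 2 (2.16) or 3 (2.06). Decreases below 2-fold included the nucleobase transporter Slc43a3 (-0.99), Slc2a6 (-0.94) and Slc6a12 (-0.86), and increases included Slc9a9 (0.84), Slc16a6 (0.63), Slc8a1 (0.58) and Slc3a2 (0.42). The count of called members was 0 without WT replicate 3, 1 without replicate 1 or 2 (Slc43a3, lower), and 3 without WT replicate 4 or either Stat6-/- replicate. In Stat6-/- controls no member was called by limma (0.161% of all loci) and 1, Slc16a6, passed the test (0.718%), with an increase of 0.54; 37 had an unadjusted p under 0.05 (22.6%, against 14.7% of all loci). Leaving out either Stat6-/- replicate leaves 1 sample in each group compared here, so no count is given for it.

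Between genotypes, over control samples averaged per replicate number across the 5 control times (4 WT against 2 Stat6-/- values), no member was called by limma, as against 0.00897% of all tested loci, and 20 had an unadjusted p under 0.05 (12.2%, against 13.1% of all loci). With 4 residual degrees of freedom this fit called 1 of the 11146 loci, so the absence of calls does not show that the genotypes were alike. The smallest adjusted p was 0.11, for Slc16a6 (0.41 higher in Stat6-/-, SE 0.06), and the widest differences were Slc13a3 (0.94 higher in Stat6-/-, SE 0.43) and Slc6a12 (-0.62, SE 0.16). With the 0 h controls alone 0 were called as well.

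Transporters of the superfamily that carry other symbols gave a wider view from a list of 29 genes. Of these 27 were in the tables and 21 were tested. At 24 h Mfsd12 was called higher (1.11) and Slco3a1, an organic anion transporter, lower (-1.17), where 3.91% and 4.58% of all tested loci were. None was called earlier. Another 5 passed upwards and 1 downwards at 24 h, which made 6 and 2 of the 21 (23.4% and 31.6% of all tested loci). The mitochondrial pyruvate carriers Mpc1 and Mpc2 did not pass at any time, with changes between -0.07 and 0.20. Of 10 tested genes of lysosomal amino acid sensing (Mtor, Rptor, Rrag and Lamtor genes) none was called, where 12.8% of all tested loci were at some time. At 6 h 3 passed upwards and 4 downwards (22% and 19.2% of all tested loci).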

How the data were processed

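The authors mapped reads of polyadenylated RNA to the mouse genome mm10 with TopHat2 2.0.7 and deposited FPKM values per locus from Cufflinks 2.0.2, as the labels and the submitters' processing notes give them. FPKM is scaled within each library, so large changes in a few genes shift the rest, and it holds no counts. Counting error is therefore unknown. The 53 tables were joined by locus, 4316 estimates below 1e-06 were set to 0, and 23847 loci resulted. Values were taken as log2(FPKM + 1). Loci with at least 1 FPKM in 1 sample were fitted in limma 3.58.1 with a mean per group and an intensity trend (35 residual degrees of freedom; 4 for genotype), two-sided, with Benjamini-Hochberg adjustment per contrast. The fit was tested on simulated data. Functional groups follow family numbers. The members, gene lists and rules were chosen with earlier results of these data known. Called members were named, except for 1 that is counted but not reported here; values per sample are given for the 5 that rose and the 5 that fell most, and for some others chosen after their values were seen. Alternatives were a pseudocount of 0.1, no filter, quantile normalization, Tukey's test within each locus, no fold threshold, a replicate block, the compared samples alone and leaving out each replicate. Annotation was GENCODE M21.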

Additional observations from a re-analysis of the deposited data

Results flagged for a closer look

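Of 14 sets of 4 samples examined for the 10 genes with values per sample, 1 held a sample far from the others, and chance gives about 0.7. Slc16a10 in WT control replicate 4 at 6 h was at 28.3 FPKM, and the other 3 controls lay between 33.5 and 34.1.

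The response to IL-4 differed between WT and Stat6-/- (interaction by limma, adjusted p under 0.05 and at least 2-fold) in the genes that follow, and each value is the WT change minus the Stat6-/- change on the log2 scale. Slc29a2 and Slc5a3 entered through the WT IL-4 samples, so their values are a description. At 1 h the difference was 2.65 for Slc30a4 and 1.13 for Slc39a6. At 3 h it was 3.99 for Slc30a4, 1.91 for Slc39a6, 1.59 for Slc22a5, 1.31 for Slc29a2, 1.30 for Slc37a2, 1.26 for Slc37a3, 1.17 for Slc4a7, -1.04 for Slc24a6, -1.20 for Slc45a4 and -1.66 for Slc16a10.

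At 6 h it was 3.89 for Slc30a4, 1.72 for Slc39a6, 1.43 for Slc22a5, 1.41 for Slc2a6, 1.40 for Slc37a3, 1.20 for Slc25a13, 1.16 for Slc17a5, 1.07 for Slc37a4, -1.05 for Slc25a37, -1.20 for Slc8a1 and -1.90 for Slc16a10. At 24 h it was 2.23 for Slc30a4, 1.497 for Slc1a5, 1.45 for Slc25a13, 1.26 for Slc7a1, 1.14 for Slc6a12, 1.12 for Slc5a3, -1.11 for Slc25a37, -1.17 for Slc16a10, -1.20 for Slc24a3, -1.76 for Slc9a9 and -1.84 for Slc7a7.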

How the results depend on the processing

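No called gene changed direction under any of the 12 alternatives, and 27 of the 37 stayed past both thresholds in all of them. No filter, Tukey's test, the compared samples alone and leaving out a Stat6-/- replicate keep the same estimate of a WT change. Its direction could not change under these. With no fold threshold the WT counts were 27, 64, 85 and 91 members at 1, 3, 6 and 24 h. A pseudocount of 0.1 gave 17 interaction calls at 6 h, 22 at 24 h and 3 culture calls in WT. Leaving out each replicate gave 3 WT calls at 1 h and 10 to 12 at 3 h. It gave 14 to 17 at 6 h, 21 to 24 at 24 h and 0 to 3 culture calls in WT. Without WT replicate 4 the interaction calls at 24 h were 7 higher and 7 lower, against 6 and 5. Using the samples compared alone gave 3 culture calls in WT. Tukey's test gave 10 higher and 4 lower WT calls at 6 h, against 11 and 6. At 24 h it gave 10 and 10, against 10 and 12, and 4 of the 37 called genes fell below a threshold with it. The cause of these shifts was not tested. The share of calls that were increases went from 72.7% to 63.6% in WT at 3 h under quantile normalization. With the smaller pseudocount it went from 100% to 75% in WT at 1 h, and the interaction split was 10 higher and 7 lower at 6 h and 9 and 13 at 24 h, against 8 and 3 and 6 and 5. Slc25a23 fell short of 2-fold under quantile normalization (-0.93).

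Whether replicate numbers pair the samples was checked by the correlation of same-numbered IL-4 and control samples around their group means. In WT every pair was above 0.1 at 3 h (0.32 to 0.48) and 6 h (0.11 to 0.56), but not at 1 h (lowest 0.03) or 24 h (lowest 0.096), and 29 of 35 WT samples correlated best with their own number. In Stat6-/- the correlations were 0.79 to 0.90 with 2 numbers, and 18 of 18 samples correlated best with their own. With 2 samples per group the deviations mirror each other, so these 18 are not separate checks. With the number as a replicate block the culture calls in WT were 3, the WT counts 3, 12, 17 and 22 and the interaction counts 2, 11, 13 and 16; of the 37 called genes 36 passed the interaction test at their largest change, against 27 without the block. The unknown depth and the pair of Stat6-/- replicates limit the precision for low genes.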
